A study of Rattus norvegicus with 47 samples.

Results

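The 9 genes described here mark the interneurons of the striatum. They were taken by symbol after the numeric gene identifiers of both count tables had been matched to rat symbols, and all 9 of 9 were found among the 15319 genes of each table. Chat (gene 290567), Slc5a7 (gene 85426) and Slc18a3 (gene 60422) mark cholinergic interneurons. Sst (gene 24797), Npy (gene 24604) and Nos1 (gene 24598) mark interneurons that release somatostatin, neuropeptide Y and nitric oxide. Pvalb (gene 25269) and Calb2 (gene 117059) encode the calcium-binding proteins parvalbumin and calretinin, and Vip (gene 117064) encodes vasoactive intestinal peptide.

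The study exposed Sprague-Dawley rats by nose-only inhalation to PCB52 (2,2',5,5'-tetrachlorobiphenyl, a polychlorinated biphenyl with 4 chlorine atoms) or to a sham exposure, and sequenced messenger RNA from tissue punches of striatum and cerebellum. PCB52 animals received the compound for 4 h a day over 28 days from glass beads coated with it, in air passed at 12 L/min, and sham animals formed the control group. All rats arrived at 28 days of age and were assigned at 42 days (females) or 39 days (males), and no group carried an engineered allele. Striatum gave libraries of 6 PCB52 females, 6 sham females, 6 PCB52 males and 4 sham males, and cerebellum gave 6, 6, 5 and 5 in the same order, 1 library per animal and region. Total counts ran from 5684508 to 8914523 in the 22 striatal libraries and from 6524400 to 15865054 in the 22 cerebellar ones.

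Interneurons are a small minority of striatal neurons, most of which are GABAergic projection neurons. The cholinergic interneuron makes acetylcholine with choline acetyltransferase (Chat), refills its terminals with choline through the high-affinity transporter Slc5a7, and loads vesicles through Slc18a3. Somatostatin interneurons usually carry Npy and Nos1 as well, parvalbumin interneurons fire fast and inhibit projection neurons, and calretinin cells form a further GABAergic class. In cerebellum the same genes have other carriers, with parvalbumin in Purkinje cells and molecular layer interneurons, calretinin in granule cells and Nos1 in granule cells and molecular layer interneurons.

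Slc18a3 lies inside the Chat gene on the same strand in RefSeq's annotation of GRCr8, the arrangement known as the cholinergic gene locus. Neither the counting rule nor any use of strand is stated, and reads that these overlapping genes share cannot be told apart. RefSeq promoter windows of GRCr8, from 250 bases before to 50 bases after the annotated start, were found for 8 of the 9 members, Calb2 excepted. The 3 cholinergic windows are shown because these genes were higher in striatum than in cerebellum by wide margins, and the Sst window because it holds the palindrome TGACGTCA, the cAMP response element known from somatostatin genes. Each is written 5′ to 3′ in the gene's direction. Capitals mark matches on either strand to TGACGTCA, to its core TGACG (which lies within the palindrome and overlaps it), to the TATA box TATAAA or to the GC box GGGCGG.

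Chat promoter, chr16:7723367-7723666, minus strand: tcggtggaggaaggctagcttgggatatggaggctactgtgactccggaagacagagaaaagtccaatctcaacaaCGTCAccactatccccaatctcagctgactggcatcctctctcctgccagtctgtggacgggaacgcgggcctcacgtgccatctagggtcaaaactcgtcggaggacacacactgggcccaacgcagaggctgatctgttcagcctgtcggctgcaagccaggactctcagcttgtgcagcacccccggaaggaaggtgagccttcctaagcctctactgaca
Slc18a3 promoter, chr16:7722765-7723064, minus strand: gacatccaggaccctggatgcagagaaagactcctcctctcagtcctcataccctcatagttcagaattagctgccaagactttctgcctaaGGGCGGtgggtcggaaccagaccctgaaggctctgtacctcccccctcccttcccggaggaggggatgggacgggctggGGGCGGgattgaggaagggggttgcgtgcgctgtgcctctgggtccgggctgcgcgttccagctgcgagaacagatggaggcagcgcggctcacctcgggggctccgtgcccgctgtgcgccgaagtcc
Slc5a7 promoter, chr9:7953460-7953759, minus strand: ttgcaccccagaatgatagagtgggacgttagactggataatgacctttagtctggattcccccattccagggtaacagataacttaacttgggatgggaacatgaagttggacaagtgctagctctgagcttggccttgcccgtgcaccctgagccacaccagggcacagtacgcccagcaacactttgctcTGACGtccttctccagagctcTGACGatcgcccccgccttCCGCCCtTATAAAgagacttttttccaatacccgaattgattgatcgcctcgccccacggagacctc
Sst promoter, chr11:90461296-90461595, plus strand: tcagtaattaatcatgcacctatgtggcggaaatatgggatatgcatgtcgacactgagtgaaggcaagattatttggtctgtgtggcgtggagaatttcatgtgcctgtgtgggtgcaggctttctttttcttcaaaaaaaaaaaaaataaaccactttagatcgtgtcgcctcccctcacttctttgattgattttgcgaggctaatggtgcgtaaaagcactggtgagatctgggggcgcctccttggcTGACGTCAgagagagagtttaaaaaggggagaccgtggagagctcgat

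The Chat window held 1 TGACG core, on the reverse strand, and the Slc18a3 window held 2 GC boxes. The Slc5a7 window held 2 TGACG cores, 1 GC box and 1 TATA box, and the palindrome of Sst began at position 253 of the 300 bases. Of 33469 RefSeq promoter windows of the same length, 1.83% held TGACGTCA, 21.2% TGACG, 14.2% TATAAA and 33.1% GGGCGG. Nos1 also held TGACGTCA. These matches describe letters only.

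Levels below are counts scaled to the library total (CPM, a count divided by the total count of its library and multiplied by the same constant throughout), given as mean ± SD over animals. Log2 fold changes come from edgeR's quasi-likelihood fit on the counts with TMM scaling, with their standard error (SE), and p-values were adjusted over all genes of the fit by the Benjamini-Hochberg method with a threshold of 0.05. The tissue is bulk, so fewer cells of a type and less RNA per cell cannot be told apart. Projection neuron markers matched the labelled striatum: all 12 listed genes, such as Drd1 and Adora2a, were measured, and their summed level was 6880 to 15200 CPM in striatal libraries and 487 to 665 CPM in cerebellar ones. Some libraries stood apart by markers of another tissue, defined as a list mean that exceeded the median of its region by more than 2 log2 units. In striatum these were PCB52 females 14 (cortical excitatory genes), 20 (choroid plexus) and 22 (cerebellar granule cells), PCB52 male 19 (cortical excitatory genes) and sham female 12 (olfactory bulb), and in cerebellum sham male 1 (choroid plexus). Transcripts of both sexes, taken as Xist and Eif2s3y both above 3 CPM, occurred in striatal sham male 3 and in cerebellar sham females 8 and 10 and sham males 9 and 11. Values given below without the libraries of another tissue keep PCB52 female 22 unless its removal is stated.

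The main question of the design was whether inhaled PCB52 changed expression in each sex. None of the 9 interneuron genes passed the threshold in striatum, in PCB52 females against sham females or in PCB52 males against sham males. In both comparisons edgeR called 0 of 12142 genes (0%), so the members' count equals the background. At an unadjusted p under 0.05 the fit held 1633 genes in females (13.4%) and 109 in males (0.898%), with 0 members among the first and 1 member, Vip, among the second. DESeq2 called 23 genes in females (0.189%) and 1 in males (0.00824%) and limma 0 in both, with 0 members in each. In no member did the CPM of exposed and sham animals separate without overlap, which 0.552% of genes did in females and 0.404% in males. The median log2 fold change of the 9 members was -0.029 in females and 0 in males, against -0.0024 and 0.0001 over all genes tested.

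The cholinergic genes overlapped between exposed and sham animals in both sexes. Chat had 10.9, 24.5 and 29.2 CPM (lowest, median and highest) in the 6 PCB52 females, against 14.2, 19.9 and 22.98 CPM in the 6 sham females. In males it had 16.7, 20.9 and 22.8 CPM in the 6 PCB52 animals, against 20.2, 25.1, 25.5 and 25.5 CPM in the 4 sham animals. The PCB52 male and sham male ranges met only between 20.2 and 22.8 CPM, where sham male 1 was the single low sham library. The log2 fold change was 0.25 ± 0.17 (SE) in females and -0.25 ± 0.19 in males (edgeR adjusted p = 0.468 and 1.0). PCB52 female 14, with the lowest Chat of all striatal libraries, was the library with the highest cortical gene mean, and without that library the female value was 0.39. The male value was -0.22 without sham male 3, which held transcripts of both sexes.

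Slc5a7, the choline transporter, averaged 31.1 ± 5.90 CPM in PCB52 females and 27.1 ± 8.63 CPM in sham females (SD, n = 6 each), with a log2 fold change of 0.18 ± 0.17 (SE; edgeR adjusted p = 0.604). It averaged 26.6 ± 4.52 CPM in PCB52 males (n = 6) and 26.7 ± 3.05 CPM in sham males (SD, n = 4; edgeR adjusted p = 1.0). Sham female 8 was the highest library at 41.8 CPM and sham female 12 the lowest at 17.7 CPM. Slc18a3, the vesicular transporter, averaged 17.4 ± 5.29 CPM in PCB52 females and 17.5 ± 2.67 CPM in sham females, and 20.4 ± 3.75 CPM in PCB52 males and 23.1 ± 6.43 CPM in sham males. Its log2 fold changes were -0.03 ± 0.20 and -0.17 ± 0.22 (SE; edgeR adjusted p = 0.952 and 1.0). Every group of each cholinergic gene overlapped every other group.

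**Figure D1:**
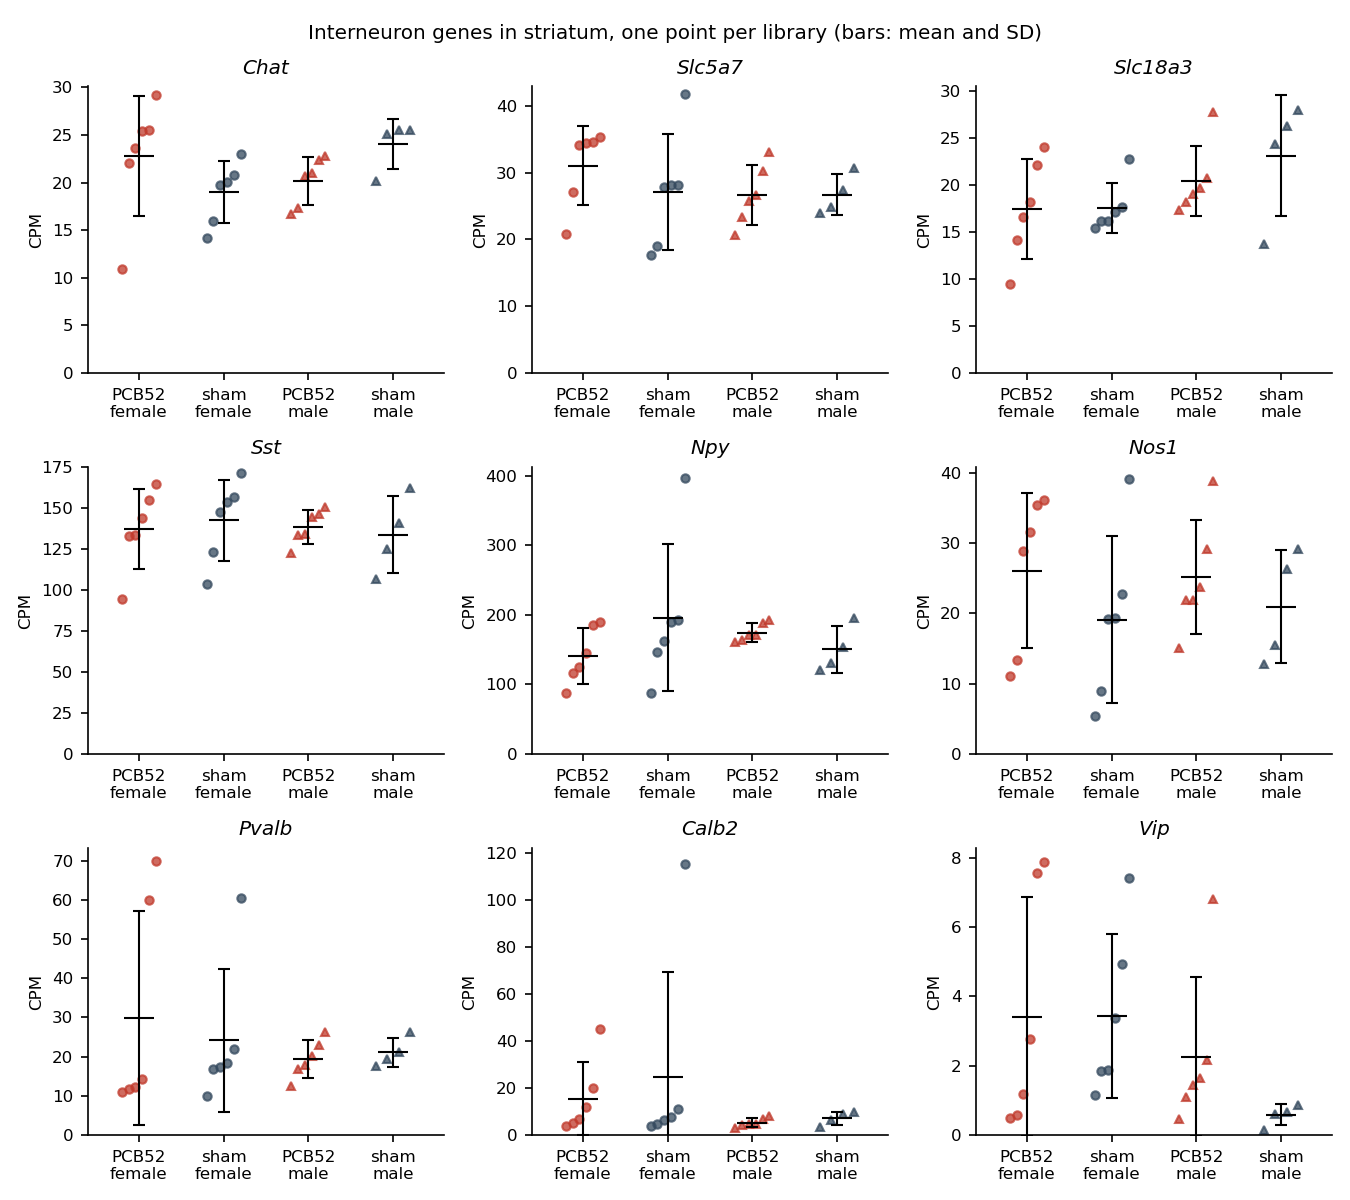
CPM of the 9 interneuron genes in striatum (vertical axes from 0), 1 point per library, by exposure and sex, with the mean and SD of each group as bars (SD bars that would pass below 0 are not drawn there). Exposed and sham animals overlap in every panel for females, single libraries set the SD of Npy, Pvalb and Calb2 in sham females, and the mean of Vip is lowest in the 4 sham males.

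The somatostatin group was steady for Sst and uneven for Npy and Nos1. Sst, a peptide that inhibits neighbouring neurons, averaged 138 ± 24.4 CPM in PCB52 females and 143 ± 24.8 CPM in sham females, and 139 ± 10.4 CPM in PCB52 males and 134 ± 23.7 CPM in sham males (SD, n = 6, 6, 6 and 4). Its log2 fold changes were -0.08 ± 0.14 in females and 0.05 ± 0.15 in males (SE; edgeR adjusted p = 0.767 and 1.0), the smallest standard errors among the 9 members. These 4 means lie within 1 SD of each other.

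Npy had 88.0, 135 and 190 CPM (lowest, median and highest) in PCB52 females, against 87.5, 176 and 397 CPM in sham females. The value of 397 CPM came from sham female 12, the library with olfactory bulb markers, and the next sham female stood at 193 CPM. The log2 fold change of -0.50 ± 0.25 (SE; edgeR unadjusted p = 0.0567, adjusted p = 0.378) was -0.15 without that library. It was 0.05 ± 0.19 without the libraries of another tissue (adjusted p = 0.997) and -0.04 ± 0.21 when female 22 was left out too (adjusted p = 0.992). In males Npy had 161, 171 and 193 CPM in PCB52 animals, against 121, 130, 155 and 196 CPM in sham animals. The male groups overlapped, with a log2 fold change of 0.22 ± 0.28 (SE; edgeR adjusted p = 1.0).

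Nos1, the neuronal nitric oxide synthase, averaged 26.1 ± 11.1 CPM in PCB52 females and 19.1 ± 11.9 CPM in sham females, and 25.1 ± 8.11 CPM in PCB52 males and 20.96 ± 7.98 CPM in sham males. The log2 fold changes were 0.42 ± 0.35 and 0.26 ± 0.39 (SE; edgeR adjusted p = 0.548 and 1.0). Single libraries ran from 5.37 CPM in sham female 12 to 39.1 CPM in sham female 8, so sham females alone spanned the whole range of striatum. Nos1 moved against the mean of 19 measured ribosomal protein genes across the 22 striatal libraries (list mean in log2 CPM; Pearson's r = -0.829, permutation p = 1e-05, the smallest that 100000 permutations can give, adjusted over 23 relations 7.67e-05; Spearman's rho = -0.79, adjusted p = 0.000287). Without the 2 libraries farthest from the median list mean r was -0.765, and over deviations from the group means it was -0.855. With that mean as a covariate the female log2 fold change of Nos1 was -0.18 ± 0.23 (SE, edgeR adjusted p = 0.837). The male value was 0.315 ± 0.233 (SE). Npy, Sst and Slc18a3 rose with the same list in striatum (r = 0.762, 0.551 and 0.504). Their permutation p-values adjusted over the 23 relations were 0.000322, 0.0189 and 0.0352, with rho = 0.727, 0.519 and 0.512. Chat, Slc5a7, Pvalb, Calb2 and Vip did not pass. With the covariate the female log2 fold change of Npy was -0.065 ± 0.188 (SE, edgeR adjusted p = 0.935).

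The calcium-binding protein genes were low in most striatal libraries and high in a few. Pvalb had 10.9, 13.2 and 69.8 CPM (lowest, median and highest) in PCB52 females, against 9.99, 17.8 and 60.5 CPM in sham females. The high libraries were PCB52 females 22 (59.96 CPM) and 24 (69.8 CPM) and sham female 4 (60.5 CPM), and the other 19 striatal libraries did not exceed 26.3 CPM. Female 22 also held granule cell markers, with a list mean of 5.07, where the 10 sham libraries reached at most 1.98. In males Pvalb averaged 19.4 ± 4.89 CPM in PCB52 animals and 21.1 ± 3.67 CPM in sham animals (SD, n = 6 and 4). The log2 fold changes were 0.27 ± 0.46 in females and -0.12 ± 0.52 in males (SE; edgeR adjusted p = 0.772 and 1.0), and the female value was -0.16 without PCB52 female 24.

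Calb2 had 3.74, 9.42 and 44.9 CPM in PCB52 females, against 4.00, 6.93 and 115.2 CPM in sham females. The 115.2 CPM belonged to sham female 12, and the next sham female stood at 11.2 CPM. The 44.9 CPM belonged to PCB52 female 22, the library with granule cell markers, and calretinin is abundant in granule cells. The part of granule cells in that value was not tested. The log2 fold change of -0.72 ± 0.73 (SE; edgeR adjusted p = 0.624) changed sign without sham female 12 (1.18). It was 1.51 ± 0.47 without the libraries of another tissue (unadjusted p = 0.00472, adjusted p = 0.654) and 0.65 ± 0.40 when female 22 was left out too (unadjusted p = 0.119, adjusted p = 0.858). In males it averaged 5.28 ± 1.85 CPM in PCB52 animals and 7.14 ± 2.79 CPM in sham animals (log2 fold change -0.45 ± 0.92, SE; edgeR adjusted p = 1.0).

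Vip was the lowest counted member, with 1 to 50 counts per striatal library. It had 0.454, 1.54 and 6.81 CPM (lowest, median and highest) in PCB52 males, against 0.158, 0.605, 0.673 and 0.879 CPM in sham males. The log2 fold change was 1.91 ± 0.87 (SE; edgeR unadjusted p = 0.0387, adjusted p = 1.0), with 5 of 6 exposed males above all 4 sham males. The 6.81 CPM came from PCB52 male 19, a library with cortical markers, and without it the value was 1.18. Without sham male 3, which held transcripts of both sexes, it was 2.16. In females Vip had 0.482, 1.99 and 7.88 CPM in PCB52 animals, against 1.16, 2.62 and 7.42 CPM in sham animals, which overlapped widely (log2 fold change -0.07 ± 0.61, SE; edgeR adjusted p = 0.964).

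Vip followed the cortical excitatory list (8 of 9 genes measured, such as Tbr1 and Fezf2) across the 22 striatal libraries. Pearson's r was 0.654 (permutation p = 0.00105, adjusted over 23 relations 0.00302) and Spearman's rho 0.674 (adjusted p = 0.00256), with r = 0.519 without the 2 libraries farthest from the median and r = 0.582 over deviations from the group means. The summed level of that list ran from 58.2 to 523 CPM in PCB52 females, 37.0 to 307 CPM in sham females, 31.6 to 485 CPM in PCB52 males and 39.0 to 58.8 CPM in sham males, with 0 of its measured genes at 0 counts throughout a group. With the list mean as a covariate the male log2 fold change of Vip was 1.00 ± 0.78 (SE; edgeR adjusted p = 1.0). Over the same 23 relations Slc18a3 fell as the cortical list rose (r = -0.548, adjusted p = 0.0189; rho = -0.506, adjusted p = 0.0355; r without the 2 farthest libraries -0.381). Chat did so by Pearson's r (-0.531, adjusted p = 0.0201) and not by Spearman's rho (-0.414, adjusted p = 0.109), and its r was -0.235 without the 2 farthest libraries.

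**Figure D2:**
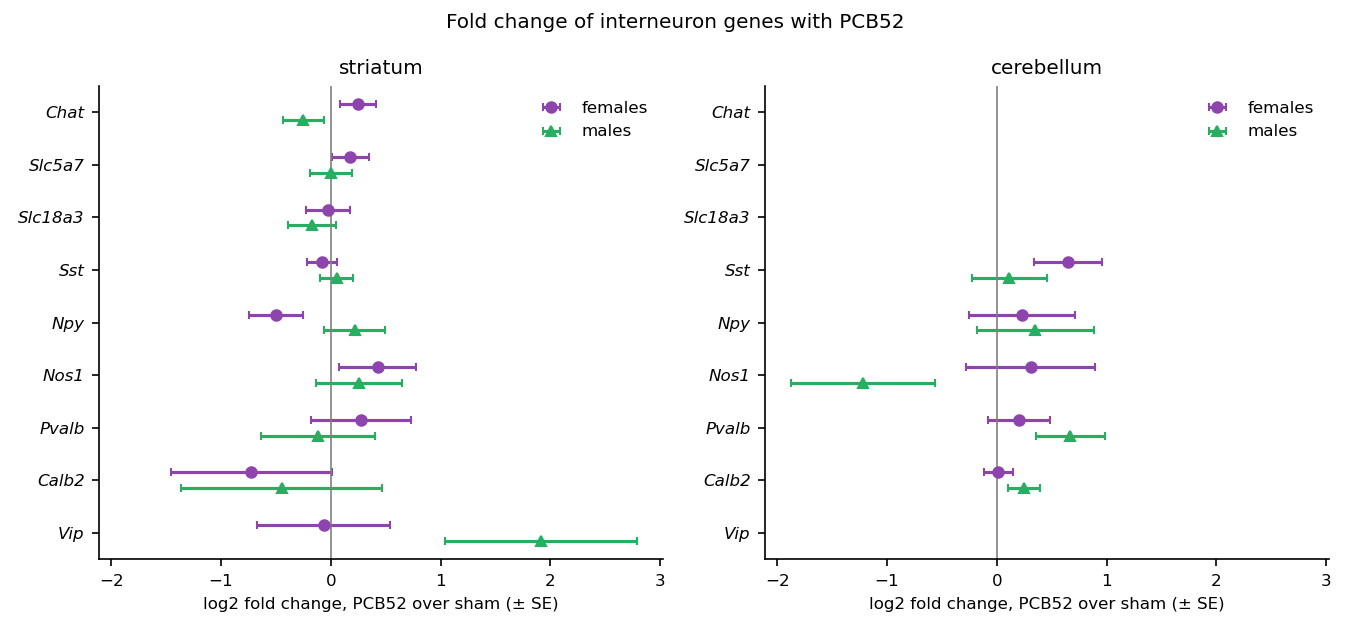
Log2 fold change of PCB52 over sham with its standard error (horizontal axis) for each interneuron gene, females as circles and males as triangles, in striatum and in cerebellum. Most intervals of 1 standard error lie across or near 0, Vip in striatal males sits farthest out at 1.91, and Nos1 and Pvalb in cerebellar males stand at -1.22 and 0.67. Genes with no point in cerebellum did not pass the filter on low counts.

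The sexes were compared next. For the female effect minus the male effect in striatum, edgeR called 0 of 12142 genes (0%) and 0 members, with 471 genes (3.88%) and 0 members at an unadjusted p under 0.05. DESeq2 and limma also called 0 genes. The 3 members of lowest p in edgeR's fit were Chat (log2 difference 0.50 ± 0.25, SE), Npy (-0.72 ± 0.37) and Vip (-1.98 ± 1.07), each with an edgeR adjusted p = 0.914 over all genes. Without the libraries of another tissue these differences were 0.47 ± 0.17 for Chat, -0.20 ± 0.27 for Npy and -0.97 ± 0.91 for Vip, with an edgeR adjusted p = 0.999 each. In that fit the members with an unadjusted p under 0.05 were Chat (0.0106) and Calb2 (0.0133, edgeR). The share of all genes under that p is given for the fit with all libraries only. The Calb2 difference was 1.90 ± 0.70 there (edgeR adjusted p = 0.999), -0.27 ± 1.18 with all libraries (adjusted p = 0.973) and 1.04 ± 0.56 when female 22 was left out too (adjusted p = 1.0). Between females and males edgeR called 5 genes in PCB52 striatum (0.0412%) and 4 in sham striatum (0.0329%), with 0 members in either (569 genes or 4.69% at an unadjusted p under 0.05 in PCB52 animals). The lowest member p was that of Vip in sham animals. It averaged 3.43 ± 2.38 CPM in females (n = 6) and 0.579 ± 0.303 CPM in males (SD, n = 4, 1 to 6 counts per library). Its log2 difference was 2.51 ± 0.85 (SE; edgeR unadjusted p = 0.00725, adjusted p = 1.0), in a comparison where 310 genes (2.55%) had an unadjusted p under 0.05. The cortical list that Vip followed summed to 39.0 to 58.8 CPM in sham males and 37.0 to 307 CPM in sham females. The part of that list in the Vip difference was not tested.

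In cerebellum 5 members passed the filter on low counts, Sst, Npy, Nos1, Pvalb and Calb2, and none passed the threshold. In PCB52 females against sham females and in PCB52 males against sham males edgeR called 0 of 11690 genes (0% in each). At an unadjusted p under 0.05 stood 369 genes in females (3.16%), with Sst among them, and 1673 genes in males (14.3%), with Pvalb among them. DESeq2 called 9 genes in females (0.077%) and 1 in males (0.00855%) and limma 0 in both, with 0 members. Exposed and sham animals overlapped in CPM for every member, while 0.257% of genes did not overlap in females and 0.881% in males. For the female minus the male effect edgeR called 0 genes (0%; 254 or 2.17% at an unadjusted p under 0.05), DESeq2 4 (0.0342%) and limma 0, with 0 members called by each. Between females and males edgeR called 0 genes in PCB52 and in sham cerebellum (379 or 3.24% and 123 or 1.05% at an unadjusted p under 0.05), with 0 members.

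Pvalb, abundant in Purkinje cells and molecular layer interneurons, had 794, 906, 1164, 1518 and 2152 CPM in the 5 PCB52 males, against 550.2, 737, 818.1, 988 and 1240 CPM in the 5 sham males. Nos1 had 5.91, 11.8, 37.7, 38.8 and 48.8 CPM in PCB52 males, against 26.9, 45.5, 71.4, 80.1 and 118 CPM in sham males. Exposed males thus lay toward the high end for Pvalb and toward the low end for Nos1, with overlap in both. The log2 fold changes were 0.67 ± 0.31 for Pvalb (SE; edgeR unadjusted p = 0.0442, adjusted p = 0.313) and -1.22 ± 0.66 for Nos1 (unadjusted p = 0.0773, adjusted p = 0.313). Without sham males 9 and 11, which held transcripts of both sexes, and the other such libraries they were 0.81 and -1.42, and without sham male 1, which held choroid plexus markers, 0.54 and -0.94.

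Both genes moved with the ribosomal protein list across the 22 cerebellar libraries. For Pvalb Pearson's r was 0.982 and Spearman's rho 0.976, and for Nos1 r was -0.957 and rho -0.963 (permutation p = 1e-05 for each, the smallest that 100000 permutations can give, adjusted p at most 0.000115). The r values without the 2 libraries farthest from the median were 0.972 and -0.937, and over deviations from the group means 0.98 and -0.958. The summed level of the 19 ribosomal genes ran from 7100 to 21500 CPM in PCB52 males and from 5450 to 10900 CPM in sham males, and from 5360 to 16800 CPM in PCB52 females and 6700 to 10900 CPM in sham females. With that list mean as a covariate the male log2 fold changes were 0.04 ± 0.07 for Pvalb and -0.13 ± 0.23 for Nos1 (SE; edgeR adjusted p = 0.969 and 0.968). Sst, Npy and Calb2 also rose with the list (r = 0.661, 0.704 and 0.761, adjusted p = 0.0026, 0.0013 and 0.000172; rho = 0.665, 0.758 and 0.764). The 9 Purkinje cell markers had a summed level of 6300 to 7880 CPM in PCB52 males and 7030 to 8170 CPM in sham males.

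**Figure D3:**
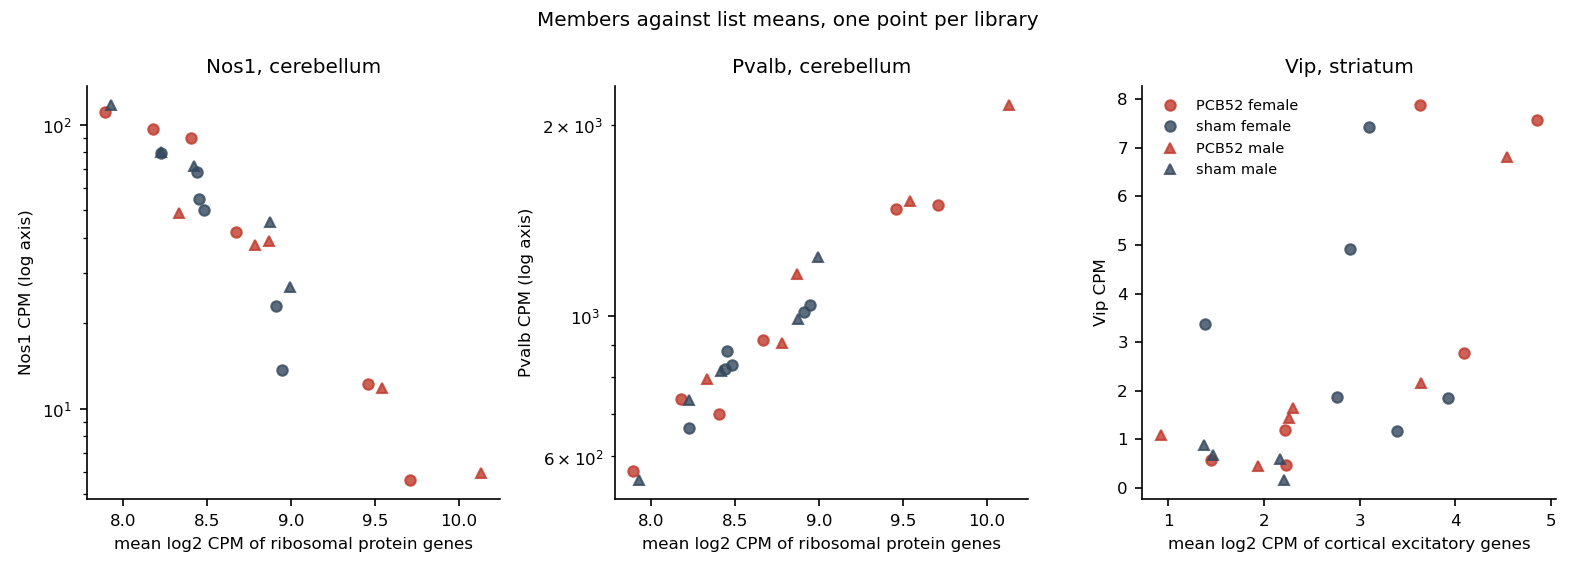
Cerebellar Nos1 and Pvalb (CPM, log axes) against the mean log2 CPM of 19 ribosomal protein genes, and striatal Vip (CPM, linear axis) against the mean log2 CPM of 8 cortical excitatory genes, 1 point per library. Nos1 falls and Pvalb climbs along the ribosomal axis in all 4 groups, and the libraries with more than 6 CPM of Vip lie above 3 on the cortical axis.

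Sst in cerebellum had 11.9, 31.1 and 73.6 CPM (lowest, median and highest) in PCB52 females, against 18.9, 21.4 and 25.4 CPM in sham females. The log2 fold change was 0.65 ± 0.31 (SE; edgeR unadjusted p = 0.0491, adjusted p = 1.0). The highest value came from female 16, and without that library the log2 fold change was 0.23. Vip, which did not pass the filter, had 6.00, 5.21 and 2.46 CPM in PCB52 females 16, 24 and 18 (52, 34 and 39 counts), while the other 19 cerebellar libraries had 0 to 3 counts each. Cck, the cholecystokinin gene, had 590, 463 and 320 counts in the same 3 libraries, against at most 12 in every other cerebellar library. In striatum Cck was highest in sham female 12 (200 CPM), PCB52 male 19 (149 CPM) and PCB52 female 14 (139 CPM), each with markers of another tissue. PCB52 female 24, which did not pass the cutoff of 2 log2 units for such markers, had 131 CPM. PCB52 female 20, with choroid plexus markers, had 14.7 CPM. The cortical list means of the 3 cerebellar libraries were 2.77 (female 16), 4.37 (female 24) and 3.78 (female 18). Which cells carried Vip and Cck in them, and the part of those cells in the Sst value, was not tested.

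The region comparison asked which interneuron genes set striatum apart from cerebellum. In sham animals all 9 members passed the threshold, 6 higher in striatum (Chat, Slc5a7, Slc18a3, Sst, Npy and Vip) and 3 lower (Nos1, Pvalb and Calb2). In PCB52 animals the same 6 were higher and Pvalb and Calb2 lower, while Nos1 did not pass. The background was wide, since edgeR called 8690 of 12446 genes (69.8%) in sham animals and 9575 (76.9%) in PCB52 animals, 34.3% and 36.5% of genes higher and 35.5% and 40.4% lower. The median of the 9 members was 3.69 in sham and 2.81 in PCB52 animals (log2), against -0.0348 and -0.0396 over all genes.

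The cholinergic genes were close to absent from cerebellum. Chat averaged 21.5 ± 4.79 CPM in striatum of 12 PCB52 animals and 21.01 ± 3.88 CPM in striatum of 10 sham animals, and the 22 cerebellar libraries held 18 counts of it in all, 5 in PCB52 and 13 in sham animals. Slc5a7 had 39 counts and Slc18a3 had 23 counts over the 22 cerebellar libraries. Chat was higher in striatum by 8.28 ± 0.32 in PCB52 animals and 7.02 ± 0.29 in sham animals (log2, SE; edgeR adjusted p = 9.88e-25 and 1.50e-23). The difference was 8.00 ± 0.34 and 6.54 ± 0.31 for Slc5a7 (adjusted p = 4.60e-23 and 1.89e-21) and 7.28 ± 0.35 and 7.37 ± 0.36 for Slc18a3 (adjusted p = 1.44e-21 and 2.75e-21). The size of these folds rests on few cerebellar counts: it was 9.25 for Slc5a7 in PCB52 animals without cerebellar PCB52 male 13, and 7.12 for Slc5a7 and 8.27 for Slc18a3 in sham animals without cerebellar sham male 3. In that sham male Chat had 6 counts, Slc5a7 16 and Slc18a3 5, together the most of any cerebellar library.

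Sst and Npy were lower in cerebellum without disappearing. Sst averaged 138 ± 17.9 CPM in striatum and 29.6 ± 16.4 CPM in cerebellum of PCB52 animals, and 139 ± 23.5 CPM in striatum and 22.9 ± 4.26 CPM in cerebellum of sham animals (log2 difference 2.21 ± 0.19 and 2.62 ± 0.19, SE; edgeR adjusted p = 7.56e-14 and 2.19e-15). Npy averaged 158 ± 33.4 CPM in striatum and 14.6 ± 8.49 CPM in cerebellum of PCB52 animals, and 178 ± 84.5 CPM in striatum and 12.4 ± 5.52 CPM in cerebellum of sham animals (3.39 ± 0.31 and 3.83 ± 0.32; adjusted p = 6.45e-13 and 8.00e-14). In each of the 21 animals with both regions, all 3 cholinergic genes, Sst and Npy were higher in striatum. Across all libraries the regions of these 5 genes did not overlap. The share of all genes without overlap between regions was not counted. Between regions edgeR called 69.8% of genes in sham animals and 76.9% in PCB52 animals.

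Pvalb and Calb2 ran the other way by wide margins. Pvalb averaged 24.6 ± 19.5 CPM in striatum and 1130 ± 480 CPM in cerebellum of PCB52 animals, and 22.9 ± 13.8 CPM in striatum and 872 ± 192 CPM in cerebellum of sham animals (log2 difference -5.62 ± 0.34 and -5.24 ± 0.37, SE; edgeR adjusted p = 1.94e-18 and 7.72e-16). Calb2 averaged 10.4 ± 11.8 CPM in striatum and 829.2 ± 119 CPM in cerebellum of PCB52 animals, and 17.8 ± 34.3 CPM in striatum and 785 ± 114 CPM in cerebellum of sham animals (-6.56 ± 0.46 and -5.83 ± 0.51; adjusted p = 3.83e-16 and 2.93e-13). The sham value of Calb2 was -6.78 without striatal sham female 12. Both genes were lower in striatum in 21 of 21 animals. Their regions did not overlap, again with no share over all genes counted beside it.

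Nos1 and Vip had overlapping regions. Nos1 was lower in striatum in 17 of 21 animals and higher in 4. In PCB52 animals it averaged 25.6 ± 9.26 CPM in striatum and 45.4 ± 37.8 CPM in cerebellum, and in sham animals 19.8 ± 10.03 CPM in striatum and 57.3 ± 30.3 CPM in cerebellum. The log2 difference was -0.69 ± 0.36 in PCB52 animals (SE; edgeR adjusted p = 0.083) and -1.47 ± 0.40 in sham animals (adjusted p = 0.00117). With the animal as a block the PCB52 value was -0.41 ± 0.43 (edgeR adjusted p = 0.398) and the sham value -1.40 ± 0.43 (adjusted p = 0.00664). Nos1 passed in PCB52 animals with limma (-0.83 ± 0.28, limma adjusted p = 0.00787) and without cerebellar PCB52 female 16 (-0.79), female 20 (-0.81) or male 23 (-0.81), the 3 libraries whose Nos1 was among the 4 lowest of cerebellum. Vip was higher in striatum in 19 of 21 animals, by 2.81 ± 0.75 in PCB52 animals and 3.69 ± 0.95 in sham animals (log2, SE; edgeR adjusted p = 9.98e-04 and 7.59e-04), and by 4.97 in sham animals without cerebellar sham male 9, which held 3 of the 8 sham cerebellar counts.

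**Figure D4:**
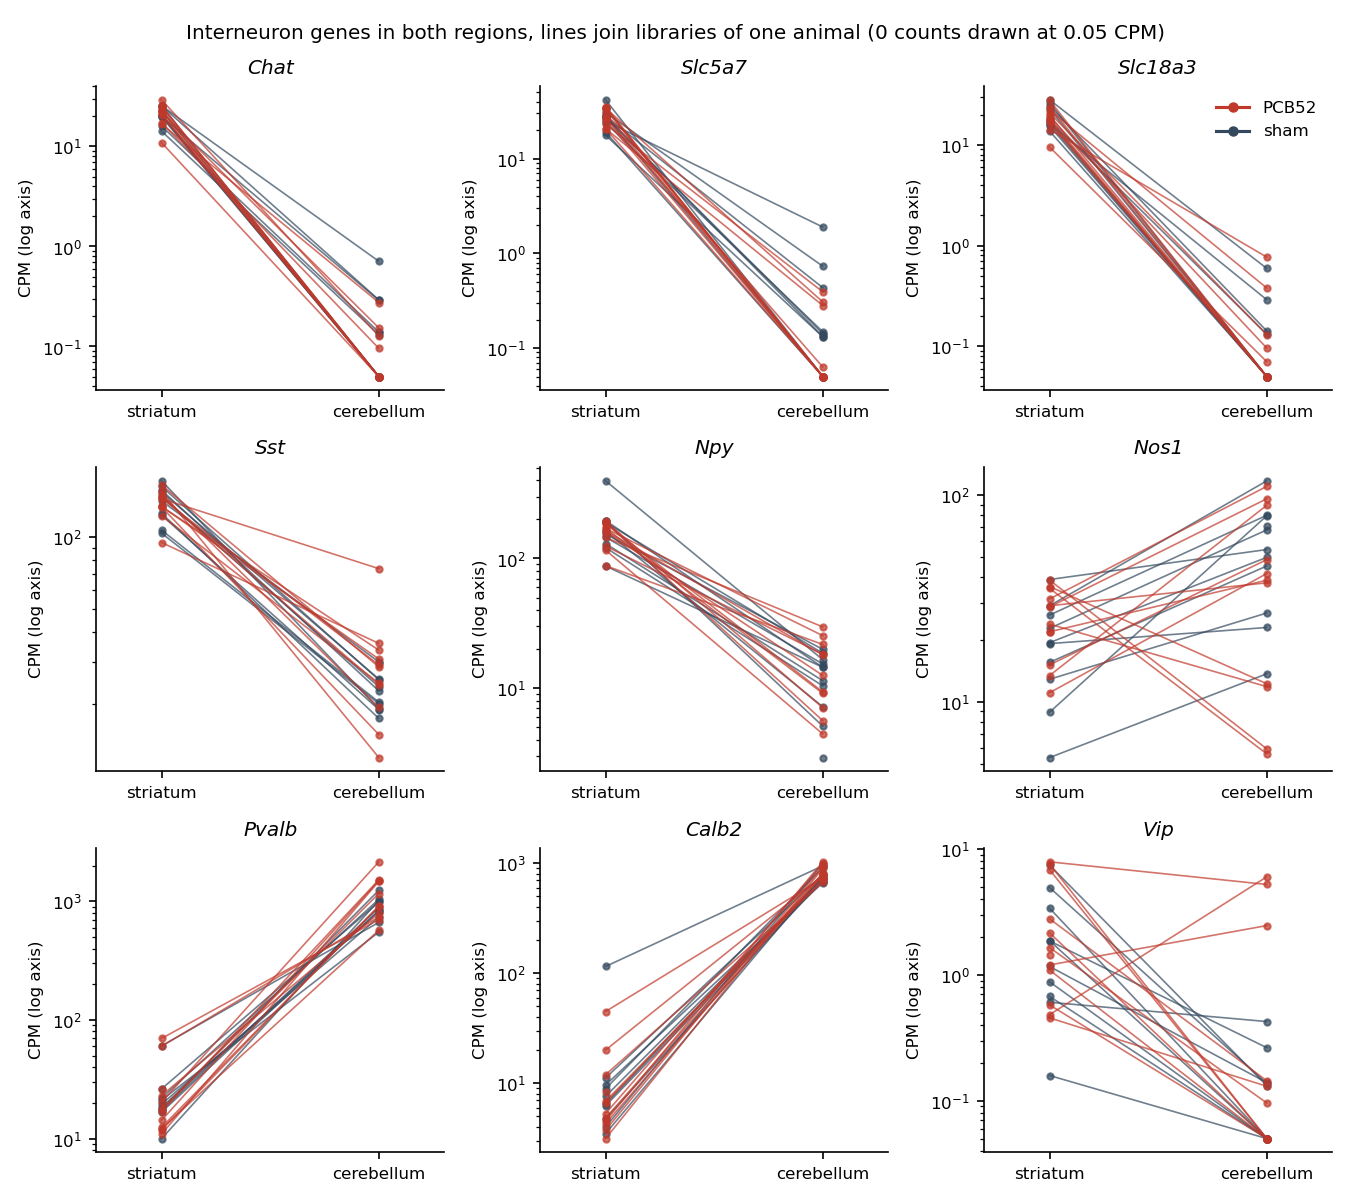
CPM of each interneuron gene (log axes) in striatum and in cerebellum, with a line joining the libraries of 1 animal, PCB52 in red and sham in blue, and libraries with 0 counts drawn at 0.05 CPM. The 3 cholinergic genes, Sst and Npy are higher in striatum in every animal, Pvalb and Calb2 are lower there in every animal, and the lines of Nos1 cross.

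The effect of PCB52 was also compared between the regions. For the striatal minus the cerebellar effect edgeR called 0 of 12446 genes (0%) and 0 members, with 2278 genes (18.3%) and 0 members at an unadjusted p under 0.05. DESeq2 called 3 genes (0.0241%) and limma 0, with 0 members. Chat stood at 1.265 ± 0.673, Slc5a7 at 1.47 ± 0.74 and Slc18a3 at -0.085 ± 1.457 (log2, SE), on 18, 39 and 23 cerebellar counts. For Slc5a7 the unadjusted p was 0.014 with DESeq2 and 0.0387 with limma (adjusted p = 0.245 and 0.378). Without libraries of another tissue edgeR gave 1.45 ± 0.61 for Chat and 1.62 ± 0.73 for Slc5a7 (unadjusted p = 0.0237 and 0.0333, adjusted p = 0.839 each). The share of all genes under an unadjusted p of 0.05 is not given for that fit.

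Other genes of the same circuits were counted by role. Beside the members, 7 of 8 further cholinergic genes were tested in striatum (such as Lhx8 and Isl1, transcription factors of the lineage), 17 of 18 further GABAergic interneuron genes, 9 of 13 acetylcholine receptors, 9 of 10 peptide receptors and 10 of 10 genes of the nitric oxide pathway. For PCB52 against sham as the mean of both sexes, edgeR called 0 of 12142 genes (0%) and 0 in each of these lists, with 704 genes (5.8%) at an unadjusted p under 0.05 and 0 calls by DESeq2 or limma. The list medians (log2) were -0.030 for cholinergic genes, 0.036 for GABAergic genes, 0.085 for acetylcholine receptors, 0.227 for peptide receptors and 0.027 for the nitric oxide pathway, against -0.0025 over all genes. Peptide receptors had 8 of 9 values above 0, with Sstr2, a somatostatin receptor, at 0.51 ± 0.24 (SE; unadjusted p = 0.0424, edgeR adjusted p = 0.774). Kcnc1, a potassium channel of fast-spiking neurons, stood at 0.28 ± 0.13 (unadjusted p = 0.0419) and Pde5a, which degrades the cyclic GMP made in response to nitric oxide, at 0.48 ± 0.22 (unadjusted p = 0.0373), both with an edgeR adjusted p of 0.774. Slc17a8, the vesicular glutamate transporter of cholinergic interneurons, stood at 0.22 ± 0.17 and the muscarinic receptor Chrm2 at 0.36 ± 0.22 (adjusted p = 0.774 each).

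In cerebellum the same comparison called 0 of 11690 genes (0%) and 0 in these lists, with 1727 genes (14.8%) at an unadjusted p under 0.05, 21 calls by DESeq2 (0.18%) and 0 by limma. GABAergic genes had 9 of 11 values below 0, with a median of -0.247 (log2) against 0.0016 over all genes. Cck, counted in this list though the cells carrying it were not identified, stood at 2.69 ± 1.07 (SE; unadjusted p = 0.0200, edgeR adjusted p = 0.326) through the 3 cerebellar libraries named above. Gucy1b1, a subunit of the nitric oxide receptor guanylate cyclase, stood at -0.23 ± 0.07 (unadjusted p = 0.00507, adjusted p = 0.326). Between the regions in sham animals, 7 of 7 further cholinergic genes passed and were higher in striatum, among them Ecel1 (6.65 ± 0.24; edgeR adjusted p = 1.47e-25). Among 17 GABAergic genes 9 were higher and 4 lower, with Lhx6, a transcription factor of somatostatin and parvalbumin interneurons, at 6.83 ± 0.36 (adjusted p = 3.48e-20). Among 9 acetylcholine receptors 6 were higher and 0 lower (Chrm4, 8.12 ± 0.25; adjusted p = 1.29e-27), among 9 peptide receptors 7 were higher and 1 lower, and among 10 nitric oxide genes 6 were higher and 4 lower (Pde2a, 4.09 ± 0.11; adjusted p = 1.06e-29). These lists stand beside the background of 34.3% higher and 35.5% lower.

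The members' variation between striatal libraries was then compared pair by pair. Of 36 pairs, 3 passed by Pearson's r with permutation p-values adjusted over the 36, and 0 by Spearman's rho. The share of all gene pairs in striatum that would pass was not counted. Chat rose with Slc5a7 (r = 0.713, adjusted p = 0.00396; rho = 0.624, adjusted p = 0.0842) and with Slc18a3 (r = 0.627, adjusted p = 0.0342; rho = 0.467, adjusted p = 0.145). Slc5a7 and Slc18a3 themselves had r = 0.172. Chat fell as Vip rose (r = -0.594, adjusted p = 0.0342; rho = -0.495, adjusted p = 0.145). The relations rest in part on PCB52 female 14 and sham female 12, without which r was 0.598, 0.405 and -0.405 and none passed (adjusted p = 0.192, 0.395 and 0.395). Over deviations from the group means, which remove differences between exposure and sex, r was 0.761, 0.659 and -0.531, and 7 pairs passed by Pearson's r, 4 by Spearman's rho and 2 by both, with 0 by Pearson's r without the 2 farthest libraries of each pair. Sst rose with Npy (r = 0.541, adjusted p = 0.0542) and both fell as Nos1 rose (r = -0.555 and -0.542, adjusted p = 0.0542 each), short of the threshold. Each of these genes also moved with the ribosomal list in striatum, as given above. The part of that list in these pairs was not tested.

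**Figure D5:**
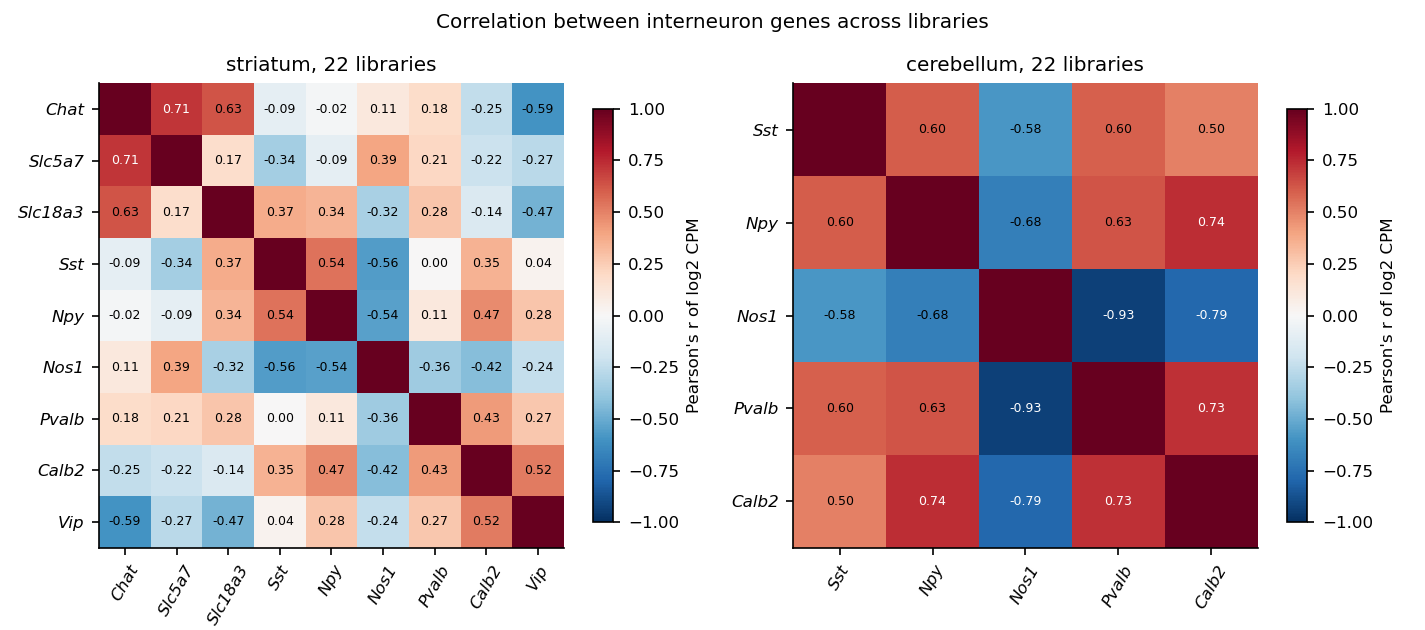
Pearson's r between interneuron genes (log2 CPM, 22 libraries per region) on a colour scale from -1 to 1, for 9 genes in striatum and for the 5 that passed the filter in cerebellum. The cholinergic block at the upper left of striatum holds 0.71 and 0.63, and the Nos1 row of cerebellum is negative throughout, down to -0.93.

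In cerebellum 10 of 10 pairs passed by Pearson's r and 9 by Spearman's rho, with adjustment over the 10. The share of all gene pairs that would pass was not counted. Nos1 fell as each of the others rose, most with Pvalb (r = -0.933, rho = -0.954; permutation p = 1e-05 for each, the smallest possible, adjusted p = 0.0001; r = -0.912 without the 2 farthest libraries). Sst, Npy, Pvalb and Calb2 rose with each other (r = 0.50 to 0.738). All 5 followed the ribosomal list as given above. Many other genes correlated with the members as strongly. Among 11576 genes ranked from the highest r with Pvalb, Calb2 stood at 3057, Npy at 3578 and Sst at 3712. The highest rank of a member was 136, for Calb2 with Npy. Pvalb stood at 10821 in the ranking for Nos1, so other genes were more negative still.

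The genes most like each member across the 22 striatal libraries, by Pearson's r of log2 CPM among 12031 genes, are given as a description. For Chat they were Slc5a7 (0.713), Foxc1 (0.71) and Slc10a4 (0.701), a vesicular transporter gene of cholinergic neurons, and for Slc18a3 they included Gtpbp6 (0.85) and Arhgap9 (0.843). For Slc5a7 they were Mtus1 (0.744), Krit1 (0.741) and Cald1 (0.726). For Sst they were Rundc3a (0.884), Spryd3 (0.881) and Ydjc (0.873), for Npy Hpf1 (0.828), Naa20 (0.827) and Mrps9 (0.824), and for Nos1 Nedd4 (0.962), Ash1l (0.946) and Atxn1 (0.937). For Pvalb they were Hapln4 (0.802), Homer3 (0.798) and Vamp1 (0.792), for Calb2 Pkib (0.847), Tuba8 (0.837) and Plekho1 (0.824), and for Vip Olfm1 (0.897), Nrn1 (0.882) and Nppa (0.867). In cerebellum the leading gene was Ndufa4 (0.99) for Pvalb and Kit (0.987), a receptor of molecular layer interneurons, for Nos1.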

How the data were processed

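RNA was sequenced from striatum and cerebellum of PCB52-exposed and sham-exposed rats of both sexes. The values are whole-number read counts per gene, deposited by the authors in a table per region. FastQC, HISAT2 and the rn6 genome build are named per the submitters' processing notes, while the counting program, its annotation and any use of strand were not given in the sources used here. Per the labels' protocols, mRNA came from poly(A) selection or from depletion of ribosomal RNA, without saying which. Whether libraries differed in method is not stated. Ribosomal protein and other short messages may be counted differently under either method, and any part of this in the list means was not tested.

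Of 47 labelled samples 44 had a column, and cerebellar sham male 5 and striatal sham males 5 and 7 were not analysed here. Column names gave the animal number, so libraries are separate animals. Symbols were matched for 15230 of 15319 gene identifiers (99.4%). The 9 members and the gene lists were chosen with earlier results of these data known. Named list genes had the 2 lowest p of their list in a comparison, and likeness was ranked among genes averaging 1 CPM or more whose symbol is no provisional locus name. A gene that this ranking names is not reported here. Cck levels and the cerebellar leading genes were added after their values were seen.

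Counts were fitted with edgeR 4.0.16 in R 4.3.3 (TMM factors, filterByExpr, robust quasi-likelihood test) per region, and over both regions for region comparisons. The fit was tested on simulated data. Log2 CPM used a prior count of 2. Correlations used 100000 permutations, two-sided (scipy 1.17.1). DESeq2 1.42.0, limma 3.58.1, other scalings, filters, left-out libraries and an animal block were alternatives. The ribosomal covariate, the granule cell exclusion, the cerebellar pairs and the list correlations were chosen after seeing the data. The 21 animals with both regions pair by number. Their deviations from group means correlated between regions by -0.35 to 0.472, with a median of 0.086 and 10 of 21 above 0.1.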

Additional observations from a re-analysis of the deposited data

Results flagged for a closer look

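In 11 of 72 groups of 4 to 6 libraries, 1 library stood apart from its group by Dixon's criterion at the 95% level, where chance flags about 1 in 20. In striatum PCB52 male 13 had 27.7 CPM of Slc18a3 (nearest 20.8), and PCB52 male 19 had 6.81 CPM of Vip (nearest 2.15). Sham female 12 had 115.2 CPM of Calb2 (nearest 11.2) and 397 CPM of Npy (nearest 193), and it is the library with olfactory bulb markers. Sham female 4 had 60.5 CPM of Pvalb (nearest 21.9) and 22.7 CPM of Slc18a3 (nearest 17.7). Sham male 1 had 20.2 CPM of Chat (nearest 25.1), the lowest of its group.

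In cerebellum the departures were of a few counts each. PCB52 male 13 had 0.392 CPM of Slc5a7 where the other PCB52 males had 0. Sham female 10 had 0.434 CPM of Slc5a7 (nearest 0.132), sham male 3 had 0.592 CPM of Slc18a3 (nearest 0.142) and sham male 9 had 0.425 CPM of Vip where the other sham males had 0.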

How the results depend on the processing

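Counts of interneuron genes or pairs past the threshold stayed within 1.5 times the reported count in 391 of 394 refits, and the other 3 are correlation counts: the 3 striatal pairs became 7 over deviations from group means, 0 without libraries of another tissue and 0 without the 2 farthest libraries. With the animal as a replicate block, 8 genes were called between regions in PCB52 animals, 9 in sham animals and 0 for the difference of the effects, so the block changed no call (Nos1 in PCB52 animals was -0.41).

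Sign changes were met among values that did not pass the threshold, and the cause was not tested. In males, striatal Slc5a7 was 0.001 with DESeq2 and with RLE size factors, 0.002 with only the groups compared, 0.003 with the ribosomal covariate, 0.042 with limma, 0.055 with the cortical covariate and 0.068 without libraries of another tissue, granule cells included or not. Striatal Pvalb in males was 0.009 without libraries holding transcripts of both sexes, where cerebellar Sst in males was -0.004 and cerebellar Calb2 in females -0.041. With limma, females had 0.686 for Calb2 and 0.015 for Npy in striatum, and -0.238 for Npy, -0.058 for Pvalb and -0.027 for Calb2 in cerebellum. Without libraries of another tissue, striatal values in females were 1.511 for Calb2, 0.208 for Vip, 0.131 for Slc18a3, 0.117 for Sst and 0.047 for Npy. With the granule cell library left out too they were 0.651 for Calb2, 0.249 for Vip, 0.099 for Sst, 0.005 for Slc18a3 and -0.123 for Nos1. With the ribosomal covariate they were 1.119 for Calb2, 0.151 for Slc18a3, 0.061 for Vip, 0.054 for Sst and -0.177 for Nos1. In cerebellum that covariate gave -0.329 for Sst and -0.471 for Npy in males, and -0.13 for Npy, -0.04 for Calb2 and -0.022 for Pvalb in females. The female minus male difference of Calb2 in striatum was 1.114 with limma, 1.903 without libraries of another tissue, 1.042 with the granule cell library left out too and 1.642 with the ribosomal covariate.

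Leaving out 1 library at a time, striatal values in males ran from -0.073 to 0.075 for Slc5a7, -0.049 to 0.166 for Sst and -0.22 to 0.009 for Pvalb. In females they ran from -0.145 to 0.101 for Slc18a3, -0.167 to 0.006 for Sst, -0.162 to 0.802 for Pvalb, -1.436 to 1.184 for Calb2 and -0.513 to 0.323 for Vip. The female minus male difference of Calb2 in striatum ran from -0.988 to 1.632. Cerebellar values in females ran from -0.11 to 0.426 for Npy and -0.064 to 0.087 for Calb2. Depth limits Vip in both regions and the cholinergic genes in cerebellum.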
